A study of Mus musculus with 10 samples.

Results

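The insulin and insulin-like growth factor (IGF) axis was examined in kidney cortex of diabetic mice through 10 genes chosen by name: the ligand gene Igf1, the receptor genes Insr and Igf1r, the binding protein genes Igfbp1, Igfbp3, Igfbp4 and Igfbp5, the adaptor genes Irs1 and Irs2, and the PI3-kinase subunit gene Pik3r3. The choice was made with earlier results of these data known. Of the 10 genes, 9 had a row among the 16475 gene rows of the deposited table, matched by Entrez ID, and Irs1 was not analysed here. The db/db group held 5 diabetic mice on the BKS background, and the db/m group held 5 non-diabetic littermates, all 24 weeks old and given no treatment. In the usual notation db/db mice carry the db mutation of Lepr, the leptin receptor gene, on both copies, while m stands for the linked coat colour mutation misty, so that db/m mice carry db on a single copy. Each mouse gave 1 Affymetrix array of cortex RNA after removal of glomeruli, with no pooling stated. All values are log2 expression levels made by the authors with RMA, and changes are db/db minus db/m on that scale. Arrays have no read depth, so precision is limited by there being 5 per group.

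Insulin and IGF1 bind related receptor tyrosine kinases, which phosphorylate the IRS adaptors; these recruit PI3-kinase, and AKT kinases then hold FOXO transcription factors out of the nucleus. Binding proteins carry the IGFs and control how much reaches the receptor. In the liver Igfbp1 and Irs2 are textbook FOXO targets, high in fasting and lowered by insulin, and the kidney proximal tubule is, like the liver, an insulin-responsive site of glucose synthesis.

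The Igfbp1 promoter is known for an insulin response element that FOXO binds. Promoter windows from 250 bases before to 50 bases after each start site (RefSeq, build GRCm38.p6) were searched on both strands for the insulin response letters CAAAACA and the FOXO letters GTAAACA. Of the 9 genes 8 matched the promoter table by gene ID, with 10 windows. The letters CAAAACA occurred in 2 of the 10 windows, those of Igfbp1 and Irs2, and in 6.28% of all 32851 windows of this length. GTAAACA occurred in 0 of the 10 and in 3.65% of all windows, and no match overlapped another. The Igfbp1 window (chr11:7197537-7197836, plus strand) is shown with its match, which starts at position -108, in capitals. The Irs2 window (chr8:11008880-11009179, minus strand) holds the match on the opposite strand, from position -37, read in the window as its reverse complement and also in capitals. The window of Igfbp3 (chr11:7213874-7214173, minus strand), the next coding gene after Igfbp1 on chromosome 11, is shown for comparison and holds no match. These matches are descriptions of letters, not of bound sites.
Igfbp1: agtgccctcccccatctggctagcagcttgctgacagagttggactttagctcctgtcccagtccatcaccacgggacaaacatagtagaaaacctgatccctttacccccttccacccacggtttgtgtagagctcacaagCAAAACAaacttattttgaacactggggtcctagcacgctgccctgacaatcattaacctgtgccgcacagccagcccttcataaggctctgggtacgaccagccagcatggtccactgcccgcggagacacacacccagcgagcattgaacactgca
Irs2: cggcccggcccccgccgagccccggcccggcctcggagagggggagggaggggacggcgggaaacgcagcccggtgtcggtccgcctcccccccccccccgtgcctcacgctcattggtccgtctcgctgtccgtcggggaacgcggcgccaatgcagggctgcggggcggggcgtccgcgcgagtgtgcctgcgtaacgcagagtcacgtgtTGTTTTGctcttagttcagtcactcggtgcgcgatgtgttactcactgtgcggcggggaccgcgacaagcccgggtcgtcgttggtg
Igfbp3: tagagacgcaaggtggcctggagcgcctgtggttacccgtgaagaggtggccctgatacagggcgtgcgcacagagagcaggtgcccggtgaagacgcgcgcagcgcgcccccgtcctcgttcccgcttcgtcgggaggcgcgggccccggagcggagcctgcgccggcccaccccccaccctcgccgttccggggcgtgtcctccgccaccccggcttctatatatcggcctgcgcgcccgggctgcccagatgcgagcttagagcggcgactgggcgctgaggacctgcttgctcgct

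The array of db/db 1 stood apart from the other 9, with Pearson r across genes of 0.938 to 0.962 with them, and carried high injury and leukocyte markers. Its injured tubule list averaged 12.5, against 6.77 to 8.58 in the other db/db mice and 6.26 to 7.63 in db/m mice. Mouse db/db 2 was also above every db/m mouse for injured tubule (8.58), leukocyte (8.88) and fibroblast (8.69) markers. For neutrophil markers db/db 2 and 3 were at 9.77 and 9.73, against at most 7.52 in db/m. Mice db/db 4 and 5 were above the highest db/m mouse in none of these lists. Each comparison below was run with and without db/db 1. With all 10 arrays limma called 6.51% of all genes at an adjusted p under 0.05 (Benjamini-Hochberg over all 16475 genes), 2.96% higher and 3.54% lower in db/db. Without db/db 1 it called 12.8%. Proximal tubule markers, which define the cortex, averaged 12.8 to 13.4 in db/db and 13.2 to 13.3 in db/m. Podocyte markers were still measured after removal of glomeruli, at a mean of 8.92 to 9.34 in db/db and 8.58 to 8.76 in db/m, and 5 of 7 rose in db/db. In such bulk tissue fewer cells of a type and less RNA per cell cannot be told apart.

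Among the 9 genes the PI3-kinase subunit gene Pik3r3 and the binding protein gene Igfbp1 stood higher in db/db mice and Igfbp3 lower, with changes of 0.59, 0.91 and -0.62, but with all 10 arrays no gene passed the threshold over all genes. Pik3r3 passed it once db/db 1 was left out. Of the 9 genes 0 were called, against 6.51% of all genes. At an unadjusted p under 0.05 there were 3 of 9 (Pik3r3, Igfbp3 and Igfbp1), against 21.5% of all genes. The groups overlapped for each of the 9, whereas 10.2% of all genes had groups that did not overlap. The median change of the 9 was -0.08, against -0.03 over all genes. Without db/db 1 the called gene was Pik3r3 alone, 1 of 9 against 12.8% of all genes. The same 3 genes had an unadjusted p under 0.05 in that fit, against 26.5% of all genes, and the groups did not overlap for Pik3r3 and Igfbp1, 2 of 9 against 15.4%.

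**Figure D1:**
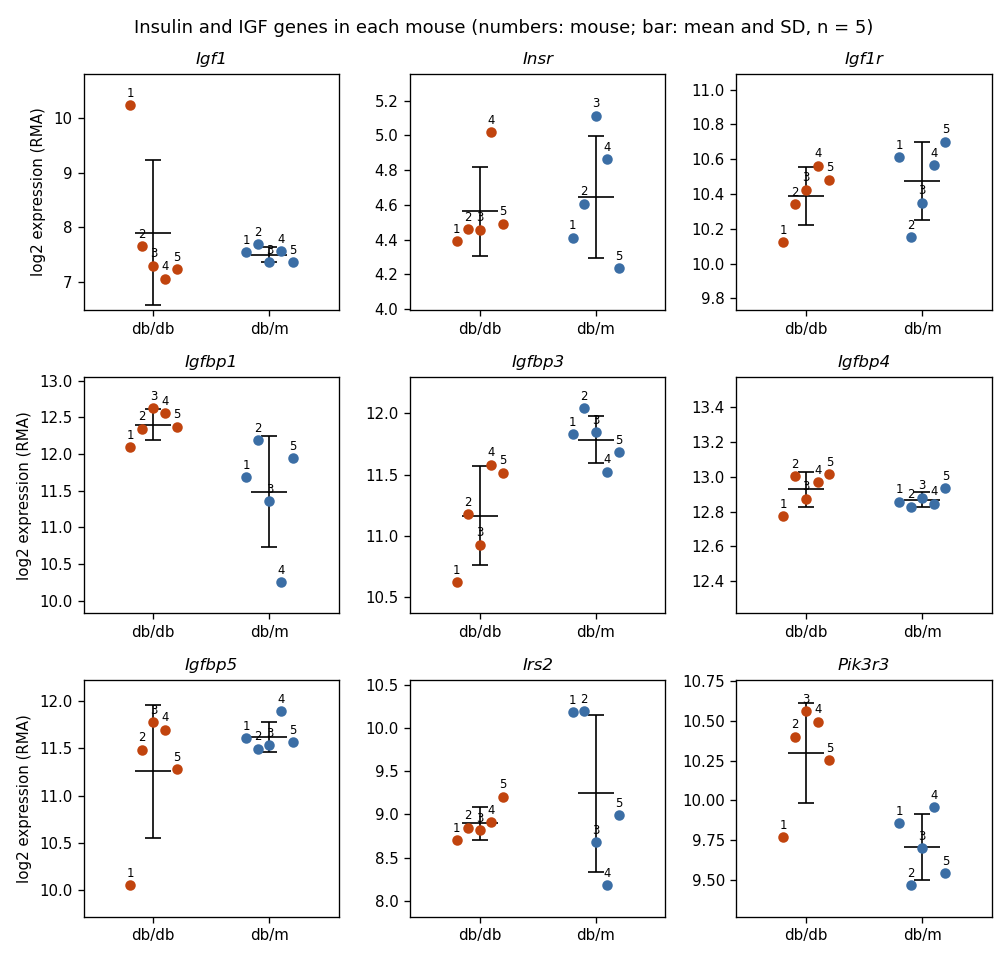
Log2 expression of the 9 genes in each mouse, with db/db on the left and db/m on the right of each panel, points numbered by mouse and bars for the mean and SD of 5 mice. Mouse db/db 1 is high for Igf1 at 10.24 and low for Igfbp5 at 10.05, and db/m 1 and 2 are high for Irs2 at 10.19 each; the y axes differ between panels.

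Igf1 encodes the ligand of the IGF1 receptor. It measured 10.24, 7.65, 7.29, 7.05 and 7.23 in db/db mice 1 to 5, against 7.54, 7.68, 7.35, 7.56 and 7.35 in db/m mice 1 to 5. A single mouse, db/db 1, was far above all others, and 3 of the other 4 db/db mice were below the lowest db/m mouse. The change was 0.40 ± 0.53 (SE, n = 5 each; limma adjusted p = 0.714) with all arrays and turned to -0.19 ± 0.12 without db/db 1 (adjusted p = 0.368), with a 95% interval of -0.46 to 0.08. The leukocyte markers moved with it: all 7 measured (Ptprc, Cd3e, Adgre1, Itgam, Lyz2, Csf1r and Cd68) were highest in db/db 1, where their mean level was 11.1, against 7.26 to 8.88 in db/db 2 to 5 and 8.15 to 8.33 in db/m. All 6 fibroblast markers were also highest there, at a mean of 10.4, against 7.35 to 8.69 in db/db 2 to 5 and 7.98 to 8.17 in db/m. All 5 injured tubule and all 3 neutrophil markers were highest in db/db 1 too. In that array 746 genes lay more than 4-fold above their db/m mean, so a high value there is not particular to these lists. The part of these cell types in the Igf1 value was not tested.

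**Figure D2:**
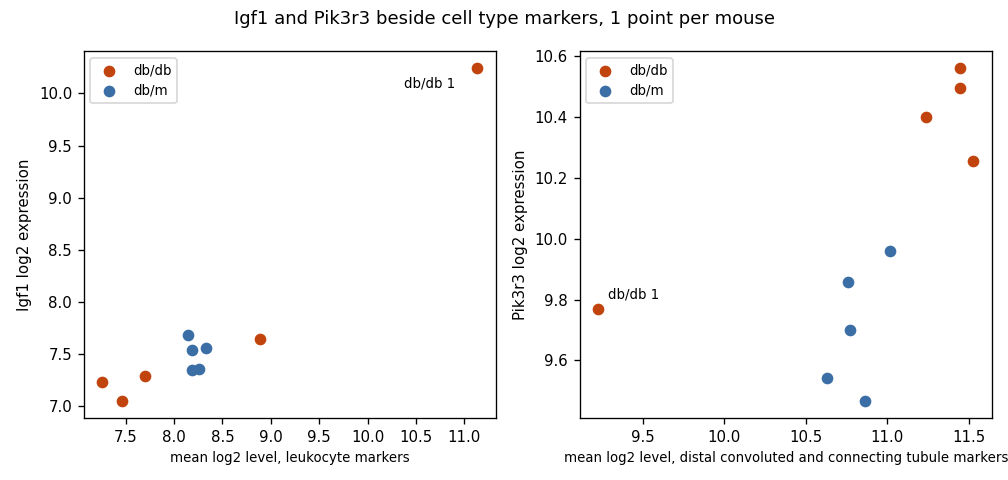
Left, log2 expression of Igf1 against the mean log2 level of 7 leukocyte markers; right, log2 expression of Pik3r3 against that of 5 distal convoluted and connecting tubule markers, 1 point per mouse. Mouse db/db 1 is at 11.1 for the leukocyte markers and 9.23 for the distal markers, outside the range of the other 9 mice on both axes on the left and on the x axis on the right.

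The receptor genes showed no difference that passed the test. Insr, the insulin receptor gene, was dim, among the lowest 25% of genes by mean, with 4.39, 4.46, 4.46, 5.02 and 4.49 in db/db and 4.41, 4.61, 5.11, 4.86 and 4.24 in db/m. Its groups overlapped throughout and its change was -0.08 ± 0.18 (limma adjusted p = 0.829, 95% interval -0.48 to 0.32). Igf1r, which encodes the IGF1 receptor, measured 10.12, 10.34, 10.42, 10.56 and 10.48 in db/db and 10.61, 10.15, 10.35, 10.57 and 10.70 in db/m. The lowest value was that of db/db 1, and the other 4 db/db mice lay within the range of db/m. The interval of its change was -0.36 to 0.18 around -0.09 ± 0.12 (limma adjusted p = 0.720). That interval holds 0 and leaves out both a 1.5-fold rise and a 1.5-fold fall, and without db/db 1 it was -0.28 to 0.23.

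Igfbp1, the binding protein gene with the insulin response letters shown above, measured 12.10, 12.35, 12.63, 12.56 and 12.37 in db/db mice 1 to 5, against 11.69, 12.19, 11.36, 10.26 and 11.94 in db/m mice 1 to 5. The db/db mice were close together and all above the db/m mean, and 4 of 5 were above the highest db/m mouse. The db/m mice ranged widely, with db/m 4 lowest. The means were 12.40 ± 0.21 in db/db and 11.49 ± 0.75 in db/m (SD, n = 5 each), a 1.88-fold difference. The change of 0.91 ± 0.31 did not pass over all genes (limma adjusted p = 0.121, 95% interval 0.22 to 1.61), nor did 0.99 ± 0.33 without db/db 1 (adjusted p = 0.0837). Without db/m 4 alone it was 0.61 ± 0.17 (limma adjusted p = 0.0987). Its adjusted p lay between 0.0295 and 0.235 over the alternatives, and, among the fits, only that with array weights, which gave db/db 1 a weight of 0.102, brought it past the threshold.

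Igfbp3 encodes the main IGF carrier of the circulation. It measured 10.62, 11.18, 10.93, 11.58 and 11.52 in db/db, against 11.83, 12.04, 11.85, 11.52 and 11.68 in db/m. Every db/db mouse was below the db/m mean and 4 of 5 were below the lowest db/m mouse, so the groups overlapped through db/db 4 alone. For db/db 5 that gap was very small, at 11.516 against 11.524 in db/m 4. The means were 11.16 ± 0.40 in db/db and 11.79 ± 0.19 in db/m (SD, n = 5 each). Its change was -0.62 ± 0.18 (limma adjusted p = 0.0756, 95% interval -1.03 to -0.21) and -0.49 ± 0.15 without db/db 1 (adjusted p = 0.0628), and it passed the threshold in no alternative fit, with adjusted p from 0.0519 to 0.219. Endothelial markers, 8 genes, averaged 9.53 to 9.73 in db/db and 9.57 to 9.65 in db/m. With all arrays 0 of the 8 passed, against 6.51% of all genes. Without db/db 1 there was 1 of 8, against 12.8% of all genes: Pecam1, higher by 0.25 ± 0.07 (limma adjusted p = 0.0469). The part of endothelial cells in the Igfbp3 value was not tested.

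Igfbp1 and Igfbp3 are neighbouring genes on chromosome 11 and stood on opposite sides of their db/m means in each db/db mouse. Igfbp1 was above its db/m mean by 0.61, 0.86, 1.14, 1.07 and 0.89 in db/db mice 1 to 5, while Igfbp3 was at -1.16, -0.61, -0.86, -0.20 and -0.27 relative to its own. In db/m mice 1 to 5 Igfbp1 was at 0.20, 0.70, -0.13, -1.23 and 0.46 and Igfbp3 at 0.05, 0.26, 0.06, -0.26 and -0.10 from the same means, on opposite sides in db/m 3 and 5. The db/m mice are centred on 0 by construction. The pair was singled out after these values were seen, so no test is given.

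Igfbp4, which encodes a binding protein that restrains IGF action, measured 12.77, 13.00, 12.87, 12.97 and 13.02 in db/db and 12.86, 12.83, 12.88, 12.85 and 12.93 in db/m. Both groups varied little, and the change of 0.06 ± 0.07 (limma adjusted p = 0.656) had a 95% interval of -0.09 to 0.21, the narrowest of the 9. With arrays centred on their medians the estimate turned to -0.01. Igfbp5, another binding protein gene, measured 10.05, 11.49, 11.77, 11.70 and 11.28 in db/db and 11.61, 11.49, 11.53, 11.89 and 11.56 in db/m. Its low value in db/db 1 carried most of the difference: the change was -0.36 ± 0.29 (limma adjusted p = 0.521) and -0.06 ± 0.12 without db/db 1 (adjusted p = 0.819).

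Irs2, the adaptor gene with CAAAACA in its window, measured 8.70, 8.85, 8.82, 8.91 and 9.20 in db/db mice 1 to 5, against 10.19, 10.19, 8.68, 8.18 and 8.99 in db/m mice 1 to 5. The db/db mice were close together (8.90 ± 0.19) and the db/m mice far apart (9.25 ± 0.91, SD, n = 5 each), with db/m 1 and 2 above every other mouse. The change of -0.35 ± 0.37 did not pass (limma adjusted p = 0.635, 95% interval -1.18 to 0.48). Single db/m mice moved it: the change was -0.11 without db/m 1, -0.11 without db/m 2 and -0.62 without db/m 4 (limma adjusted p = 0.896, 0.890 and 0.353). Cish, a feedback inhibitor gene that growth hormone induces through STAT5, was likewise highest in db/m 1 and 2, with 9.79, 10.25, 9.22, 9.50 and 10.30 in db/db and 11.73, 11.94, 7.93, 8.49 and 8.36 in db/m. Bcl6, a repressor gene that growth hormone lowers through STAT5 in liver, ran the other way, with 9.32, 9.06, 9.06, 9.33 and 8.65 in db/db and 8.66, 8.86, 10.15, 9.79 and 10.85 in db/m. In all 3 genes db/m 1 and 2 stood on one side of db/m 3, 4 and 5, and for Cish every db/db mouse lay between them. Neither gene passed between the groups (Cish 0.12 ± 0.80, limma adjusted p = 0.949; Bcl6 -0.58 ± 0.38, adjusted p = 0.421), and Cish changed sign in 4 of the 10 fits that left out 1 array. Bcl6 kept its sign in those fits but ranged from -0.83 without db/m 1 to -0.28 without db/m 5. The split was not confined to Irs2, Cish and Bcl6. Srebf1, of the insulin-induced metabolic genes, measured 11.14 and 11.14 in db/m 1 and 2, against 10.61, 10.54 and 10.61 in db/m 3, 4 and 5. Igf1 did not split the db/m mice in this way. Cish, Bcl6 and Srebf1 were picked out after their values were seen, and the source of the split was not tested.

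**Figure D3:**
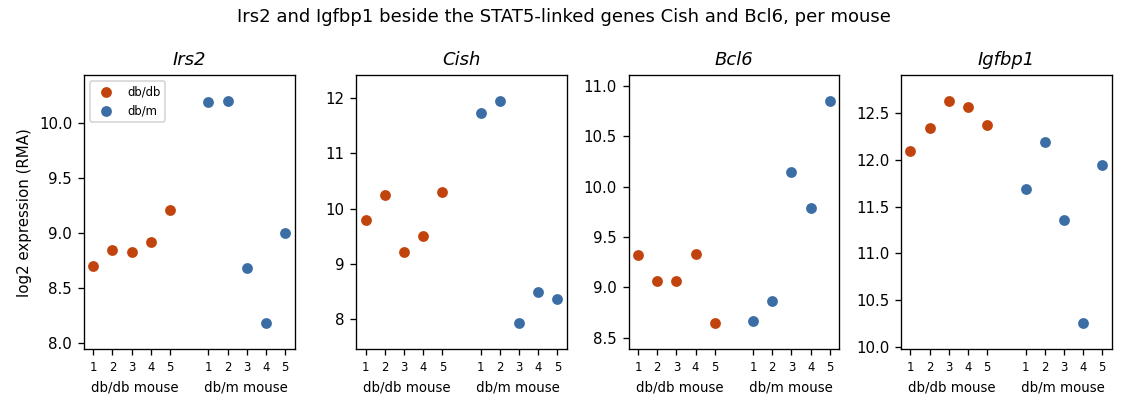
Log2 expression of Irs2, Cish, Bcl6 and Igfbp1 in each mouse, db/db mice 1 to 5 on the left of each panel and db/m mice 1 to 5 on the right. Irs2 and Cish are highest in db/m 1 and 2, at 10.19 and 10.19 for Irs2 and 11.73 and 11.94 for Cish, while Igfbp1 does not split the db/m mice in this way.

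Pik3r3 encodes a regulatory subunit that docks PI3-kinase on phosphorylated receptors and adaptors. It measured 9.77, 10.40, 10.56, 10.50 and 10.26 in db/db mice 1 to 5, against 9.86, 9.47, 9.70, 9.96 and 9.54 in db/m mice 1 to 5. Mice db/db 2 to 5 were above every db/m mouse and db/db 1 lay inside the db/m range. With all arrays the means were 10.30 ± 0.32 in db/db and 9.71 ± 0.21 in db/m (SD, n = 5 each), a 1.51-fold difference that just missed the threshold (0.59 ± 0.16, limma adjusted p = 0.0536, 95% interval 0.24 to 0.94). Without db/db 1 Pik3r3 rose 1.65-fold (0.72 ± 0.11, limma adjusted p = 0.00353). Over all alternatives its change stayed between 0.52 and 0.76, with adjusted p from 0.00144 to 0.126.

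Both Pik3r3 and the mean of distal tubule markers were higher in db/db 2 to 5 than in every db/m mouse. In db/db 1 that mean was below every db/m mouse, while Pik3r3 was inside the db/m range. The 5 markers of the distal convoluted and connecting tubule averaged 9.23 in db/db 1. Their mean was 11.2 to 11.5 in db/db 2 to 5 and 10.6 to 11.0 in db/m. With all arrays 1 of 5 was called higher in db/db and without db/db 1 5 of 5, against 2.96% and 6.84% of all genes. The 6 principal cell markers averaged 9.96 in db/db 1, 11.0 to 11.2 in db/db 2 to 5 and 10.4 to 10.7 in db/m. The 4 intercalated cell markers averaged 8.99 in db/db 1, 10.4 to 10.9 in db/db 2 to 5 and 9.96 to 10.5 in db/m. The 8 proximal tubule markers averaged 12.77 in db/db 1, 13.34 to 13.35 in db/db 2 to 5 and 13.16 to 13.33 in db/m. The mice thus had the same order there as for the distal list, by a smaller margin. Of these 8 markers 0 were called with all arrays and 0 without db/db 1, against 6.51% and 12.8% of all genes. Without db/db 1, 4 of 6 principal cell, 1 of 4 intercalated cell and 7 of 7 podocyte markers were also called higher. The part of these cell types in the Pik3r3 value was not tested. Pik3r3 also lies on chromosome 4 within 20 Mb of Lepr, the mutated gene, and was the 1 of the 9 genes to do so. Of 246 genes in that window 10.6% passed (12 higher and 14 lower), against 6.51% of all genes, and 16.3% without db/db 1, against 12.8% of all genes. An effect of diabetes and an effect of sequence linked to Lepr cannot be told apart there.

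**Figure D4:**
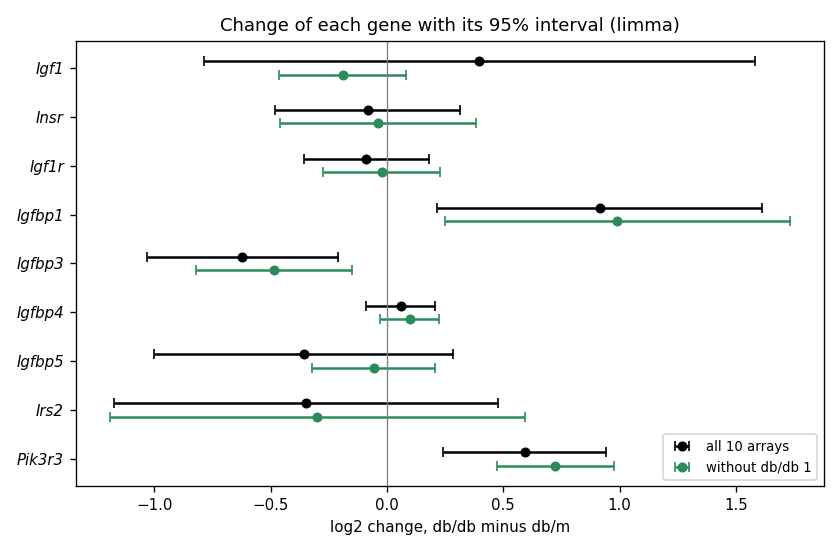
Change of each of the 9 genes on the log2 scale, db/db minus db/m, with its 95% interval from limma, for all 10 arrays in black and without db/db 1 in green. Intervals for Igfbp1, Igfbp3 and Pik3r3 leave out 0 in both fits before adjustment over all genes, and the interval for Igf1 spans -0.79 to 1.58 with all arrays but -0.46 to 0.08 without db/db 1.

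Around these 9 in the pathway, lists by role held 62 further named genes, of which 0 rose and 2 fell in the limma fit with all arrays, against 2.96% and 3.54% of all genes. At an unadjusted p under 0.05 there were 12 of 62, against 21.5% of all genes, and the changes ran from -0.58 to 0.93. Their median change was 0.01, against -0.03 over all genes. Without db/db 1 there were 3 higher and 4 lower, against 6.84% and 5.93%.

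Ghr, which encodes the growth hormone receptor, was the clearest of them. It measured 12.57, 12.78, 12.61, 12.57 and 12.84 in db/db, against 13.08, 13.17, 13.11, 13.23 and 13.07 in db/m. All 5 db/db mice were below all 5 db/m mice, and Ghr fell by 0.46 ± 0.08 (limma adjusted p = 0.00834), a call kept in all 10 fits that left out 1 array. The other growth hormone axis genes measured, Jak2, Stat5a, Stat5b and Cish, did not pass. Mtor, the growth kinase gene downstream of AKT, measured 11.36, 11.85, 11.61, 11.76 and 11.86 in db/db, against 12.10, 11.95, 12.18, 12.23 and 12.17 in db/m. These groups did not overlap either (2 of the 62 further genes, against 10.2% of all genes), and Mtor fell by 0.44 ± 0.11 (limma adjusted p = 0.0383). Its call was lost in 7 of 10 fits that left out 1 array (adjusted p 0.0507, 0.0831 and 0.0621 without db/db 2, 3 and 4, and 0.0762, 0.101, 0.0925 and 0.0808 without db/m 1, 3, 4 and 5). It was the 1 called gene of 12 that act downstream of PI3-kinase, against 6.51% of all genes.

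In the other roles the gene nearest the threshold, of those not yet described, is named. Among 3 ligand genes it was Igf2 (-0.21 ± 0.11, limma adjusted p = 0.296), and among 4 receptor genes the insulin receptor-related gene Insrr (-0.32 ± 0.36, adjusted p = 0.663). Without db/db 1 these were -0.10 ± 0.05 and 0.07 ± 0.13 (limma adjusted p = 0.247 and 0.812). Among 12 binding proteins and partners it was Pappa, which encodes a protease that cuts IGF binding proteins (0.70 ± 0.24, limma adjusted p = 0.119). Without db/db 1 Pappa was at 0.66 ± 0.26 (limma adjusted p = 0.130). It passed in 1 of the 10 fits that left out 1 array, that without db/m 4. Over those fits its limma adjusted p ran from 0.0409 to 0.234. The adaptor gene Grb2 was at 0.21 ± 0.09 (limma adjusted p = 0.188) and the PI3-kinase subunit gene Pik3r1 at 0.43 ± 0.16 (adjusted p = 0.155). Without db/db 1 they were at 0.14 ± 0.06 and 0.29 ± 0.11 (limma adjusted p = 0.174 and 0.118).

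Brakes, FOXO genes and metabolic targets had 0 called genes of 7, 11 and 4 with all arrays, against 6.51% of all genes, and 2, 2 and 1 at an unadjusted p under 0.05, against 21.5% of all genes. Grb14, an adaptor that inhibits the insulin receptor, was at 0.40 ± 0.12 (limma adjusted p = 0.0740) and rose by 0.48 ± 0.10 without db/db 1 (adjusted p = 0.0133). Pdk4, a FOXO target that limits pyruvate oxidation, was at 0.93 ± 0.30 (limma adjusted p = 0.101) and at 0.65 ± 0.19 without db/db 1, where it passed (adjusted p = 0.0479). The glucose synthesis genes Pck1 and G6pc, FOXO targets in liver, were at 0.26 ± 0.14 and 0.01 ± 0.12 (limma adjusted p = 0.323 and 0.968). Without db/db 1 they were at 0.34 ± 0.13 and 0.13 ± 0.07 (limma adjusted p = 0.113 and 0.272). Both were named although neither had the lowest adjusted p of its list. Fasn, the fatty acid synthase gene that insulin induces, was at -0.58 ± 0.17 (limma adjusted p = 0.0713) and fell by 0.66 ± 0.16 without db/db 1 (adjusted p = 0.0263). Without db/db 1 the insulin-regulated glucose transporter gene Slc2a4 also rose (0.76 ± 0.12, limma adjusted p = 0.00357) and the lipid phosphatase gene Inppl1 fell (-0.33 ± 0.09, adjusted p = 0.0495), against 0.38 ± 0.35 and -0.27 ± 0.10 with all arrays. Slc2a4 measured 6.83 in db/db 1, below all other mice, 8.36 to 9.01 in db/db 2 to 5 and 7.84 to 8.08 in db/m. Slc2a4 and Inppl1 were named after their values were seen.

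**Figure D5:**
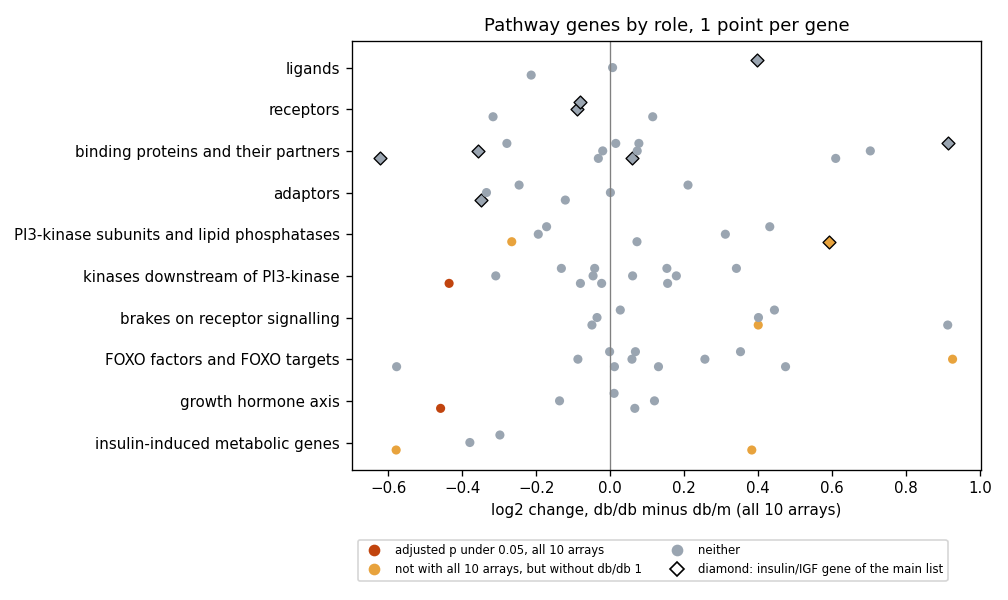
Log2 change, db/db minus db/m with all 10 arrays, of 71 pathway genes in 10 lists by role, 1 point per gene, with diamonds for the 9 genes described first. Red points, Ghr and Mtor, passed an adjusted p of 0.05 with all arrays, and orange points passed in the fit without db/db 1 but not in that with all arrays; the changes run from -0.62 to 0.93.

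Profiles like those of the 3 genes with the lowest p were sought by the root mean square difference of the 10 array values, each gene first set to its db/m mean. This extension to genes short of the threshold was made after their values were seen. Nearest to Pik3r3 were Fgfr2, a fibroblast growth factor receptor gene (0.117 log2 units), and Ankrd28 (0.122). Nearest to Igfbp1 were D630039A03Rik (0.256) and Gypc, the glycophorin C gene (0.341). Atat1, a tubulin acetyltransferase gene, and Zfp354b were nearest to Igfbp3 (0.130 and 0.145).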

How the data were processed

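RNA from glomerulus-depleted cortex of 10 mice was hybridised to Affymetrix arrays. Per the submitters' processing notes RMA was used, and the log2 values were deposited by the authors in that form; the RMA version and the regrouping of probes into 1 value per Entrez gene are not given in the sources used here. Of 16539 rows, 64 control rows were left out; of 16475 gene rows 15780 carried a symbol in the supplied annotation and the other 695 were tested but not named.

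The groups were compared with limma 3.58.1 (lmFit, eBayes, R 4.3.3), two-sided, with Benjamini-Hochberg adjustment over all gene rows; intervals are 95% and unadjusted. The code was checked on simulated data. Genes named are all members with a row, and per pathway list up to 4 called genes, or the gene with the lowest adjusted p. The members and lists were chosen with earlier results of these data known. No 2 arrays were copies. Mouse numbers did not pair the groups. Alternatives were a replicate block, dim genes left out, 2 further scalings, trend and robust eBayes, array weights, each array left out, other thresholds, an exact permutation test, and windows of 10 and 40 Mb around Lepr. Figures used Python 3.11.15 and matplotlib 3.10.9.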

Additional observations from a re-analysis of the deposited data

Results flagged for a closer look

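Of 46 sets of 5 mice tested (23 named genes in each group), 7 were flagged. In these the gap from 1 mouse to the nearest other, as a share of the range, exceeded Dixon's 95% critical value. Chance flags about 1 in 20 independent sets. The 46 sets come from the same 10 mice, and Cish, Bcl6, Slc2a4 and Inppl1 were picked after their values were seen. The 7 can therefore not be judged against that rate. In 4 of the 7 the mouse was db/db 1. There Igf1 was at 10.24, against 7.05 to 7.65 in the other db/db mice, Igfbp5 at 10.05 against 11.28 to 11.77, Igf2 at 5.64 against 6.14 to 6.24, and Grb2 at 12.11 against 11.71 to 11.80. Insr was at 5.02 in db/db 4, against 4.39 to 4.49 in the other db/db mice. In db/m 4 Igfbp5 was at 11.89, against 11.49 to 11.61 in the other db/m mice, and Pappa at 7.52 against 6.39 to 6.69.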

How the results depend on the processing

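The number of genes called among the 9 depended on the setting. The number higher was 1 with dim genes left out, 1 with trend and robust eBayes, 2 with array weights and 1 with the replicate block in a fit lacking db/db 1, and lay between 0 and 1 over the fits that left out 1 array, while the number lower was 0 in every alternative run. Leaving out dim genes removed Insr from its fit. Pik3r3 passed in these fits, with adjusted p of 0.0429 without dim genes, 0.0475 with trend and robust eBayes and 0.0152 with the block in the fit lacking db/db 1. In the exact permutation test of single genes, two-sided and unadjusted, p was 0.0159 for Igfbp1 and Igfbp3 and 0.0238 for Pik3r3, with 0.00794 the smallest possible. Estimates turned sign for Igf1 (-0.16 with array weights, -0.18 with the block in the fit lacking db/db 1), Igf1r (0.00050 and 0.011 in the same fits), Igfbp4 (-0.0089 with median centring) and Insrr (0.013 with the block in the fit lacking db/db 1). Over the fits that left out 1 array the ranges were -0.19 to 0.61 for Igf1, 0.61 to 1.09 for Igfbp1, -0.62 to -0.11 for Irs2, -0.20 to 0.034 for Insr, -0.48 to 0.068 for Insrr and -0.32 to 0.68 for Cish.

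Among the 71 pathway genes the numbers higher and lower were 0 and 0 with the replicate block, 3 and 0 with the block in the fit lacking db/db 1, 4 and 5 with array weights, 0 and 1 at an adjusted p under 0.01 and 0 and 0 with at least a 1.5-fold change; the number higher was 1 with dim genes left out and 1 with trend and robust eBayes. Over the fits that left out 1 array they ranged from 0 to 4 and from 1 to 4. Ghr lost its call under the replicate block (adjusted p = 0.0643) and so did Mtor (0.108). Over all genes 180 were higher and 213 lower with the replicate block, 1346 and 1295 with array weights, 132 and 147 at an adjusted p under 0.01, and 311 and 264 with at least a 1.5-fold change. The ranges over the fits that left out 1 array were 234 to 1127 and 256 to 977, and median centring gave 363 and 751. Within 20 Mb of Lepr the share called was 3.66% with the replicate block, 19.1% with array weights, 3.66% at an adjusted p under 0.01 and 6.50% with at least a 1.5-fold change, and 5.28% to 16.3% over the fits that left out 1 array. Deviations of same-numbered mice from their group means correlated at -0.09 to 0.01, so the block is a setting and not a pairing. The causes were not tested.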
